A study of Mus musculus with 15 samples.

Results

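Small noncoding RNA genes were taken as the rows of the muscle stem cell count table whose name marks a small nucleolar, Cajal body, nuclear, Y, 7S, RNase P, RNase MRP, telomerase or microRNA gene, or whose Ensembl identifier has such a gene type in GENCODE vM21. The rule found 116 members among the 8059 listed genes. All 116 had a matching gene type, 6 of them also matched by name, and 102 carried no name in the table and are given here by their GENCODE names. By class, 40 were box C/D and 34 box H/ACA small nucleolar RNAs (snoRNAs), 6 were snoRNAs whose box class was not set, 10 were small Cajal body RNAs (scaRNAs), and 11 were small nuclear RNAs (snRNAs). The remaining members were 6 ribosomal RNA (rRNA) genes, 4 RNase P and MRP RNAs, 3 Y and vault RNAs and 2 microRNA genes. Genes of 7SK RNA and telomerase RNA were not among the members.

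The cells were mouse muscle stem cells, also called satellite cells, which lie quiescent along muscle fibres until injury. Bulk RNA-seq covered T0, which is labelled intact, and T15, T30, T60, T90 and T120, which are labelled dissociated, with PFA (paraformaldehyde) fixation at every time point and a mix of collagenase and dispase for dissociation. The labels give no unit for these numbers, taken here as minutes, and the sources used here do not give the strain, sex, age, cell sorting or pooling of animals. T30 and T90 had 3 libraries (A to C) and each of the other time points had 4 (A to D). Nothing says that the letters mark separate animals, so p-values measure only the spread between these libraries, which may be technical.

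SnoRNAs guide chemical changes of ribosomal RNA: box C/D members guide 2'-O-methylation and box H/ACA members guide pseudouridylation, each within a protein complex. Most mammalian snoRNAs lie in introns of host genes and are freed from the spliced intron, so that host and snoRNA share a promoter. ScaRNAs guide the same changes in spliceosomal snRNAs, U1 snRNA pairs with the 5' splice site, RNase P cuts the leader from transfer RNA precursors, and Y RNAs bind the Ro60 protein. Most of these RNAs carry no poly(A) tail, and the total RNA kit used here does not select for one.

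The sequences given here are those of members on which the results turn, from the GENCODE vM21 transcripts (GRCm38), written 5' to 3'. The first pair, Gm23511 (chr3:48954722-48954885, plus strand) and Gm22513 (chr12:54696782-54696945, plus strand), are snRNA genes of 164 bases that resemble U1. Their start corresponds to the stretch of U1 that pairs with the splice site, and the first capital letter of each lies within it. They are shown because Gm23511 had a decrease that was called under every alternative and Gm22513 had the widest spread of the members. Capitals mark the 10 positions at which they differ, and their longest shared run is 50 bases.
Gm23511: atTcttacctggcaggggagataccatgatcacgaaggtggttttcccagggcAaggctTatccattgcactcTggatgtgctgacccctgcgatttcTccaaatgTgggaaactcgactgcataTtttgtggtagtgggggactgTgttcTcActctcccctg
Gm22513: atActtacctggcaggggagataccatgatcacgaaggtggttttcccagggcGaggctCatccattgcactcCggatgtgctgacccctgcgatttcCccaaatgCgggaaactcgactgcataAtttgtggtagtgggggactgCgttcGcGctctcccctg
Rprl3 (chr8:3803069-3803358, minus strand) and Rprl2 (chr3:22251374-22251663, plus strand), both of 290 bases, are annotated as ribozyme genes and resemble the RNase P RNA Rpph1 (chr14:50807449-50807767, minus strand). They are shown because Rprl3 passed the test upward, and capitals mark the 23 positions at which they differ. Rprl3 shares a run of 37 bases with Rpph1.
Rprl3: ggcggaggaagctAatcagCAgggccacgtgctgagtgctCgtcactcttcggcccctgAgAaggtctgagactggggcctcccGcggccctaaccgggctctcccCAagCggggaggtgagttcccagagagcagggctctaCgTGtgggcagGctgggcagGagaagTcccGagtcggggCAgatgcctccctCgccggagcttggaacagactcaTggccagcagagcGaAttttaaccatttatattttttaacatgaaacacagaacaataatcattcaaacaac
Rprl2: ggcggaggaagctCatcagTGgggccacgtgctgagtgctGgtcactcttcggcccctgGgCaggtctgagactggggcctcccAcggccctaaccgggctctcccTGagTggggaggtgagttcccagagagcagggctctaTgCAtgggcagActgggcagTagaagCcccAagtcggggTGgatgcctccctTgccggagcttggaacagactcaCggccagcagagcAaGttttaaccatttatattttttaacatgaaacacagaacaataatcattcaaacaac
One abundant member of each snoRNA class and the only snoRNA called against T0 in the edgeR fit of the deposited counts of all 22 libraries with TMM scaling are shown next. Capitals mark the first TGATGA (the letters of the C box) and the last CTGA (the letters of the D box) in Snord104 (chr11:106500993-106501062, plus strand), the last CTGA alone in Snord19 (chr14:31016206-31016281, minus strand), and the ACA near the 3' end of Snora21 (chr11:97781639-97781775, minus strand).
Snord104: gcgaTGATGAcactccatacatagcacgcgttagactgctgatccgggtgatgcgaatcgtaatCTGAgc
Snord19: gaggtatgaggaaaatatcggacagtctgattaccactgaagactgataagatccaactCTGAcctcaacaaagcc
Snora21: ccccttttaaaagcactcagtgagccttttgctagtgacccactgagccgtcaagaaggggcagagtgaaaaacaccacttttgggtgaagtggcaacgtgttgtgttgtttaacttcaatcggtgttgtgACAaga
The 2 microRNA genes follow. Gm23935 (chr16:11144125-11144181, plus strand) is an annotated hairpin of 57 bases, and mmu-miR-6236 is the mature product of Mir6236 (chr9:110281287-110281409, plus strand) in RefSeq (GRCm38.p6), with its seed, bases 2 to 8, in capitals.
Gm23935: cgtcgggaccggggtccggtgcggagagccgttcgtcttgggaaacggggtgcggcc
mmu-miR-6236: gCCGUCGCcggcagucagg

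Among the 40 box C/D members, with lengths of 64 to 238 bases and a median of 77.5, 32 contained TGATGA and 40 contained CTGA on the transcribed strand. The 34 box H/ACA members were longer, at 122 to 246 bases with a median of 133.5; all 34 had an ACA near the 3' end, none held TGATGA and 16 held CTGA. The box class had been set by name or by these letters, so the counts describe the classes. Of all members, 36 had at most 100 bases, 66 had more than that and up to 200, and 14 had more than 200. A host gene on the same strand was listed for 81 members, in 64 different genes, while 6 had a host that was not listed and 29 lay in no gene. For 16 members an exon of another gene overlapped on the same strand, and 33 members shared a run of 16 bases with another member, among them the U1-like pair, the RNase P RNA group and the 5S rRNA copies n-R5s2, n-R5s71 and n-R5s194. The counts of those members are uncertain, since reads could be split or lost between them.

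Library totals over listed genes ran from 2974294 to 10482407 counts at T0 to T30 and from 8647622 to 27826437 at T60 to T120. The satellite cell markers were listed at 8 of 8, with a summed level of 3300 to 3990 CPM, counts scaled to the library size, at T0 and 4830 to 5980 CPM at T120. That rise was carried mainly by Sdc4, from 421 ± 54.1 to 2530 ± 336 CPM (SD, n = 4 libraries each, log2 fold change 2.59). Itga7 (0.77) and Chrdl2 (0.52) also rose at T120 in the edgeR fit, while Pax7 (-1.83), Cdh15 (-1.12) and Calcr (-0.79) fell. Myf5 (0.25) and Vcam1 (0.22) were not called. Of the endothelial markers 4 of 8 were listed (Pecam1, Cdh5, Kdr and Flt1), with a sum of 50.1 to 134 CPM at T0 and 166 to 479 CPM at T120. Of the immune markers 1 of 8 was listed, of the fibroadipogenic 4 of 6, of the smooth muscle and pericyte 5 of 6, and of the myofibre 5 of 7. The smooth muscle and pericyte sum was 185 to 294 CPM at T0 and 452 to 640 CPM at T120. The part of these cells in the members' values was not tested, and fewer cells of a type cannot be told apart from less RNA per cell in bulk samples.

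The members as a group differed far more between libraries of the same time point than other genes did. The members took 1.11% to 4.67% of a library's counts. Their median standard deviation of log2 CPM within time points was 0.84, against 0.21 over all listed genes, and 93.1% of members exceeded 0.5 against 5.37% of all genes. The difference was seen in each band of level: among genes with a mean of 100 to 500 CPM the median was 0.86 for 28 members and 0.17 for 1755 other genes. Above 500 CPM it was smaller, at 0.59 for 9 members and 0.2 for 222 other genes. The median biological coefficient of variation in the edgeR fit was 0.506 for members and 0.151 for all genes.

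**Figure D1:**
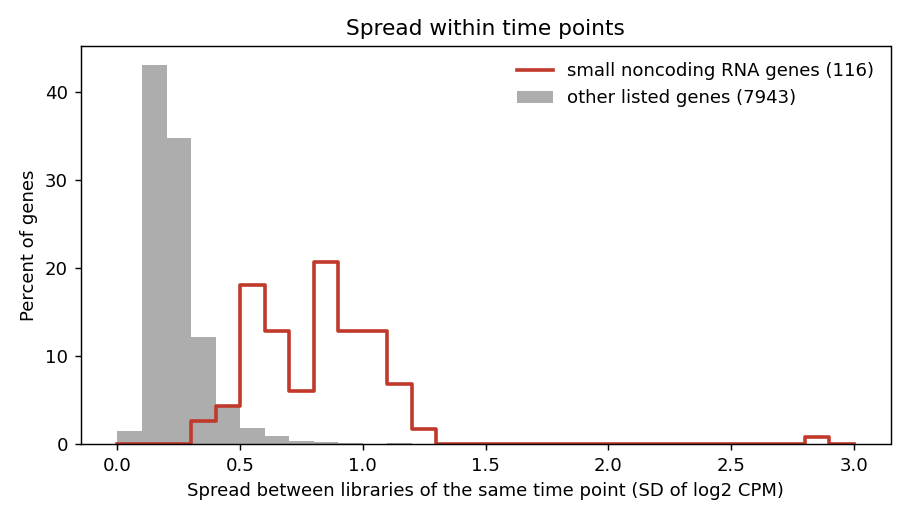
Share of genes (vertical axis, percent) by the standard deviation of log2 CPM between libraries of the same time point (horizontal axis), for the 116 small noncoding RNA genes (red line) and the other listed genes (grey bars). Most members lie to the right of 0.5, where few other genes do, and the member near 2.84 is Gm22513.

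Snord104, a box C/D snoRNA, shows this spread. At T0 it was at 821, 692, 441 and 226 CPM in libraries A to D, at T15 at 186, 260, 600 and 1181 CPM, and at T30 at 1548, 341 and 195 CPM in A to C. At T60 it was at 441, 247, 528 and 494 CPM, at T90 at 747, 104 and 174 CPM, and at T120 at 140, 136, 303 and 439 CPM. The lowest and the highest library of T15 or T30 spanned every T0 value, and the groups of T0 and T120 overlapped. Its fitted log2 fold change at T120 was -1.10 (SE 0.68), with a 95% interval of -2.50 to 0.31 and an adjusted p of 0.145 in edgeR's quasi-likelihood test. In the fit of only T0 and T120 it was -1.05 and was called.

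The box H/ACA snoRNA Snora21, in an intron of the ribosomal protein gene Rpl23, had a narrower range. Its libraries A to D were at 728, 1093, 575 and 506 CPM at T0 and at 585, 403, 741 and 676 CPM at T120. The 2 groups overlapped, and the log2 fold change was -0.27 (SE 0.35), or -1.05 and called with background subtraction.

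The deviations were shared among members. Within time points, the median correlation between 2 members across the 22 libraries was 0.88 (Pearson's r, a description, since the pairs share library and depth), while it was 0 between 2 other genes. The first principal component held 81.6% of the members' within-time variance and 27.1% of that of all listed genes. In library T90A all 116 members were above their T90 mean, by a median of 1.36 on the log2 scale, while 106 were below it in T90B and 114 in T90C. Libraries T30A and T15D stood high, with median deviations of 1.08 and 0.89, and T15A stood low at -0.95. No library letter was high or low throughout: A libraries ran from -0.95 to 1.36, B from -0.82 to 0.57, C from -0.82 to 0.49 and D from -0.67 to 0.89. The median deviation was above 0 in 4 of 6 A libraries, 1 of 6 B, 3 of 6 C and 3 of 4 D libraries. Across the 22 libraries, the deviation and that of the log2 library total had r = -0.26 and rho = -0.20, given as a description.

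**Figure D2:**
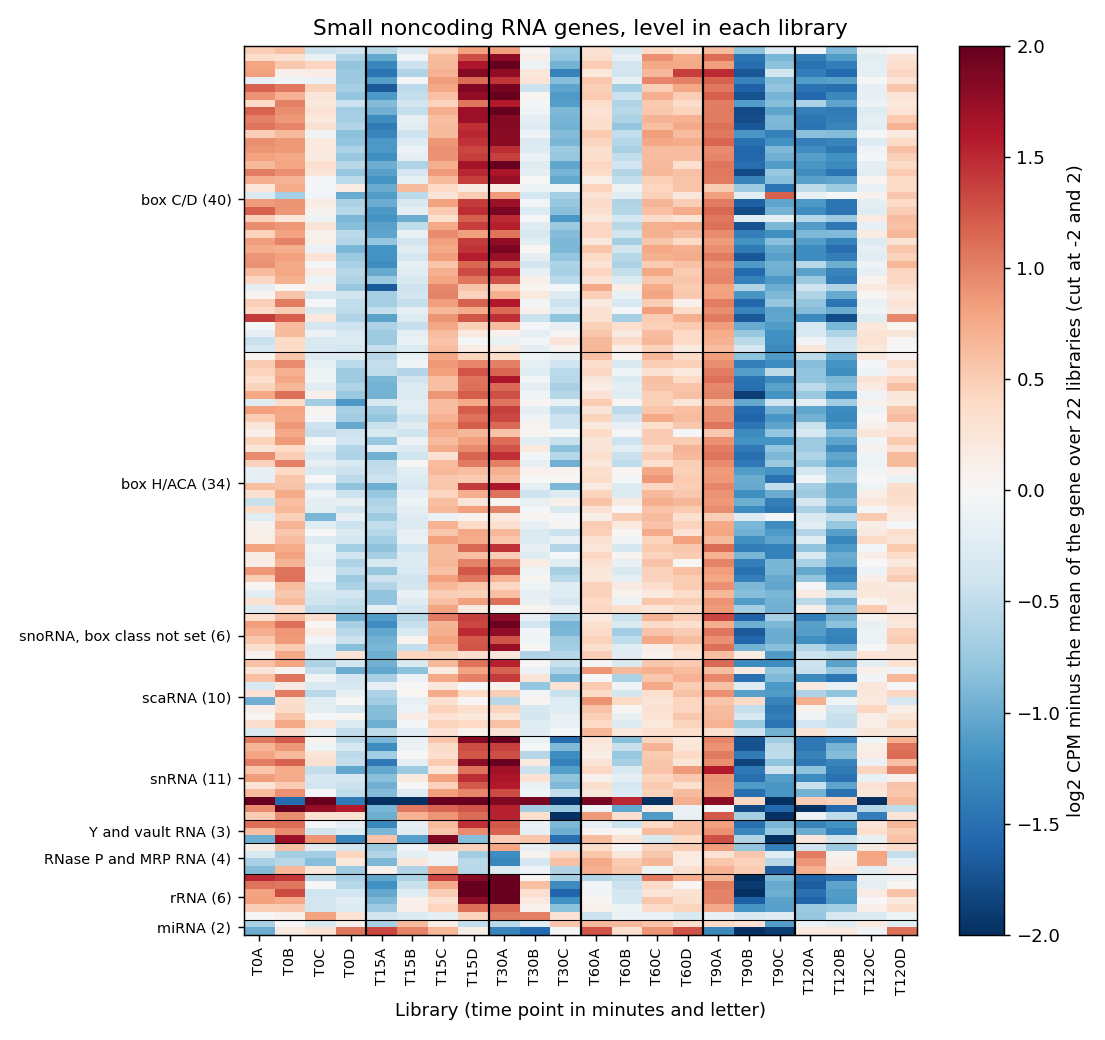
Level of each of the 116 small noncoding RNA genes (rows, grouped by class and ordered by length within a class) in each of the 22 libraries (columns, vertical lines between time points), as log2 CPM minus the mean of the gene over the libraries. Whole columns are red (T15D, T30A, T90A) or blue (T15A, T90B, T90C), and the Rprl2 and Rprl3 rows among the RNase P and MRP RNAs do not follow the columns.

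Members differed in how far they followed this shared pattern. Within time points, 106 of the 116 had r over 0.5 with the median of the other members, with a median r of 0.98 for box C/D and 0.97 for box H/ACA members. The values below 0 belonged to 4 members, namely Rprl2 (-0.42), Rprl3 (-0.24), Mir6236 (-0.10) and Gm23935 (-0.05). Scarna6 (0.17) and Rpph1 (0.20), the RNA of RNase P, came next. The ratio of the highest to the lowest library had a median over members of 1.82 at T60 and 4.91 at T90, with 2.48, 3.69, 3.8 and 2.74 at T0, T15, T30 and T120. For all listed genes that median stayed between 1.28 and 1.37.

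Against T0, no member was called at T15 or T30, and few were called later, although most listed genes changed by then. A gene was called where edgeR's adjusted p, over all 8059 genes, was under 0.05. At T15, 0 members were called and 0 had an unadjusted p under 0.05, with 0.67% of all listed genes called and 3.29% at that unadjusted threshold. At T30, 0 members were called and 3 had an unadjusted p under 0.05, against 5% of all genes called and 18.9% at the unadjusted threshold. DESeq2 and limma-voom also called 0 members at both times. At T60, 3 members were up and 2 down, against 27.9% and 28.3% of all genes (56.2% in either direction). The fit of only T0 and T60 called more members up, as given in the last section. At T90, 1 was up and 3 down, against 33.8% and 35% of all genes (68.8%). At T120, 1 was up and 2 down, against 37.3% and 39.5% (76.8%). All 5 comparisons share the T0 libraries.

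Over all time points jointly, 3 members were called (85.7% of all listed genes were), namely Gm23511 (adjusted p = 0.000419 in edgeR), Mir6236 (0.000149) and CT010467.1 (0.000243). In the authors' deposited table, the same members as here were called at T120, while at T60 Gm23751 was called in addition and at T90 CT010467.1 was not. A lack of a call did not show a lack of change. At T120, the 95% interval lay within 2-fold in either direction for 21 of 116 members (18.1%) and for 42.2% of all listed genes, with median widths of 2.23 and 0.64 on the log2 scale.

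**Figure D3:**
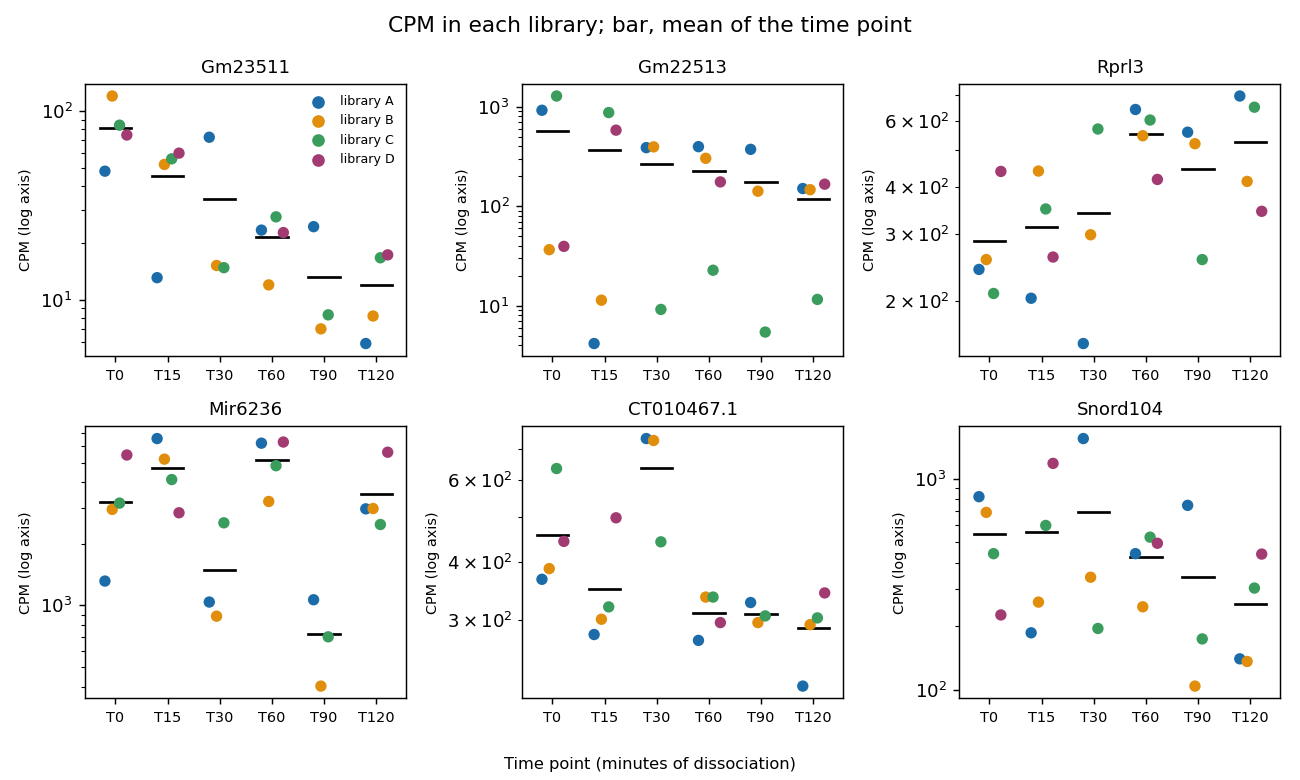
CPM (vertical axes, log scale) in each library by time point for 6 members, coloured by library letter, with a bar at the mean of each time point. Gm23511 is lowest at T90 and T120, Mir6236 is low at T90, Rprl3 is higher at T60 and T120 than at T0, and Gm22513 and Snord104 vary within every time point.

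Gm23511, the U1-like snRNA gene on chromosome 3, fell at T60, T90 and T120. It was at 48.0, 120, 84.1 and 74.6 CPM in the T0 libraries, at 13.1, 52.1, 55.8 and 59.8 CPM at T15, and at 72.6, 15.2 and 14.8 CPM at T30. It was at 23.4, 12, 27.5 and 22.7 CPM at T60, at 24.4, 7.02 and 8.33 CPM at T90, and at 5.87, 8.21, 16.7 and 17.3 CPM at T120. Every library of T60, T90 and T120 was below every T0 library, while T15 and T30 each overlapped T0. Libraries T30B and T30C, at 15.2 and 14.8 CPM, and T15A, at 13.1 CPM, were also below every T0 library. A fall before T60 is therefore not excluded. The log2 fold change was -1.93 (SE 0.53, adjusted p = 0.00413 in edgeR) at T60 and -2.65 (SE 0.61, adjusted p = 0.000685 in edgeR) at T90. At T120 it was -2.73 (SE 0.55, adjusted p = 0.000141 in edgeR), and the call held in all 18 alternatives run for that comparison, with values from -3.55 to -2.41.

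The near copy Gm22513 was far more abundant in some libraries and not in others. It was at 924, 36.7, 1285 and 39.6 CPM at T0, at 4.18, 11.4, 876 and 583 CPM at T15, and at 389, 396 and 9.20 CPM at T30. It was at 398, 304, 22.8 and 176 CPM at T60, at 374, 142 and 5.45 CPM at T90, and at 151, 147, 11.6 and 167 CPM at T120. High and low libraries occurred at every time point, with a within-time standard deviation of 2.84 on the log2 scale, and no library letter was high throughout. The log2 fold change at T120 was -2.26 (SE 1.44, adjusted p = 0.158 in edgeR). Reads from shared stretches of the 2 genes cannot be told apart.

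The other named snRNAs, Rnu11 and Rnu12, belong to the minor spliceosome, which removes a rare class of introns. Rnu11 was at 146, 136, 64.2 and 64.6 CPM at T0 and at 34.4, 28.8, 73.2 and 87.3 CPM at T120, with a log2 fold change of -0.87 (SE 0.56, adjusted p = 0.160 in edgeR). Rnu12 was at 26.3, 32.2, 16.5 and 12 CPM at T0 and at 8.65, 5.88, 19.7 and 24.9 CPM at T120, with a log2 fold change of -0.53 (SE 0.55). Both overlapped between the groups. Of the 11 snRNA members, 10 had an estimate below 0 at T120 and 1, Gm23511, was called. In the fit of only T0 and T120, Gm25939 was called as well.

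Rprl3, the RNase P-like gene, rose at T60 and T120. It was at 242, 257, 209 and 440 CPM at T0, at 642, 547, 602 and 419 CPM at T60 and at 697, 414, 651 and 345 CPM at T120. One T0 library, D, lay within the range of both later groups. Library D had the largest total of the T0 libraries, 9745758 counts, and every T60 library had a larger one. Within T60, the library with the largest total, D, had the lowest value. The part of library depth was not tested. The log2 fold change was 0.94 (SE 0.35, adjusted p = 0.0259 in edgeR) at T60 and 0.87 (SE 0.35, adjusted p = 0.0275 in edgeR) at T120. The T120 call was lost without library A, B or C of T0 or A or C of T120 (lowest value 0.75), and 10 of the 18 alternatives kept it; background subtraction gave 0.14. The T60 call was lost without A, B or C of T0 or A or C of T60 (lowest value 0.81), and background subtraction gave 0.38.

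Rprl2 was less abundant than Rprl3, with which it shares length, and had values in the same direction. It was at 21.3, 16.3, 16.5 and 35.7 CPM at T0 and at 53.9, 27.8, 45.6 and 18.9 CPM at T120, with a log2 fold change of 0.68 (SE 0.33, adjusted p = 0.0674 in edgeR). DESeq2 called Rprl2 at T120. Rpph1 was at 2095, 6007, 4412 and 2290 CPM at T0 and at 6198, 4384, 3308 and 4223 CPM at T120, a log2 fold change of 0.29 (SE 0.41). Rmrp, the RNA of RNase MRP, which processes ribosomal RNA precursors, was at 2698, 3719, 2143 and 1948 CPM at T0 and at 1898, 1506, 2788 and 3155 CPM at T120, a log2 fold change of -0.17 (SE 0.38). Neither passed the test, and in both the groups overlapped. An exon of Ccnb1ip1 overlaps Rpph1 on the same strand, so the Rpph1 count may be incomplete.

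Mir6236 was called against T0 at T90, where it was lower, and not at the other times in the edgeR fit of all 22 libraries. It was at 1316, 2952, 3168 and 5447 CPM at T0, at 6556, 5199, 4131 and 2841 CPM at T15, and at 1039, 886 and 2537 CPM at T30. It was at 6224, 3227, 4829 and 6304 CPM at T60, at 1066, 403 and 702 CPM at T90, and at 2969, 2980, 2489 and 5621 CPM at T120. Every T90 library was below every T0 library, and T120 lay within the T0 range except for 1 library. The log2 fold change at T90 was -2.15 (SE 0.47, adjusted p = 0.000393 in edgeR), called in all 17 alternatives run. At T30 it was -1.11 (SE 0.45, adjusted p = 0.173 in edgeR), with 2 of 3 libraries below every T0 library. From T30 to T60 it was 1.79 (SE 0.46, adjusted p = 0.00305 in edgeR), in a comparison with 51% of all listed genes called. Leaving out the 5 libraries with the highest background density gave 1.01, with T30C as the only T30 library left. The count is that of the annotated hairpin region in a total RNA library, not of the mature microRNA.

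Gm23935 was the more abundant of the 2 genes annotated as microRNA genes and was called at T60. It was at 5275, 8209, 6755 and 8861 CPM at T0, at 12993, 12969, 12220 and 10560 CPM at T60 and at 7630, 7116, 9449 and 7075 CPM at T120. Every T60 library was above every T0 library, and T120 overlapped T0. Every T60 library also had a larger total count than every T0 library, and the part of depth was not tested. Relative to T0, the fitted log2 fold change was 0.74 (SE 0.30, adjusted p = 0.0407 in edgeR) at T60 and 0.10 (SE 0.30) at T120. The T60 call was kept in 9 of 18 alternatives, and among the fits that each left out 1 library it was lost without A, B or C of T0 or of T60 (lowest value 0.61). Background subtraction gave 0.16 at T60, and with it Gm23935 was called down at T120. Of the 2 genes annotated as microRNA genes, only 1, Mir6236, was in RefSeq. Whether the reads of either gene come from ribosomal RNA was not tested, so neither count is read as a microRNA level.

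CT010467.1, an rRNA gene of 2475 bases (chr17:39846353-39848827, minus strand), fell at T60, T90 and T120. It was at 367, 387, 636 and 443 CPM at T0, at 279, 301, 320 and 498 CPM at T15, at 738, 731 and 442 CPM at T30, at 271, 336, 336 and 296 CPM at T60 and at 216, 293, 303 and 343 CPM at T120. All T60 and T120 libraries were below the T0 libraries, as were 3 of the 4 T15 libraries, although it was not called at T15. In the fit, the log2 fold change was -0.56 (SE 0.20, adjusted p = 0.0214 in edgeR) at T60, -0.56 (SE 0.22, adjusted p = 0.0272 in edgeR) at T90 and -0.67 (SE 0.20, adjusted p = 0.00521 in edgeR) at T120. An exon of AY036118 overlaps it on the same strand and Gm42418 on the other. Without library T0C the values at T60 and T90 were -0.37 and -0.38 and lost the call. The T60 call was also lost without T60A (-0.49) or T60D (-0.54), and the T90 call without T90B (-0.55) or T90C (-0.58). From T30 to T60 the log2 fold change was -1.04 (SE 0.21, adjusted p = 0.000488 in edgeR). Without the 5 libraries of highest background it was -0.52, with T30C as the only T30 library left. Measured against the other members, it was -0.24 at T120 and was not called. The other 5 rRNA members also had estimates below 0 at T120 in the edgeR fit of all 22 libraries, with a lowest value of -1.43 and no call. In the fit of only T0 and T120, n-R5s194 and n-R5s2 were called.

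Among the scaRNAs, Scarna2 was called up at T60 only. It was at 123, 184, 134 and 106 CPM at T0 and at 237, 173, 188 and 190 CPM at T60, where 1 T60 library lay below the highest T0 library. Its log2 fold change was 0.53 (SE 0.22, adjusted p = 0.0459 in edgeR), and the call was kept in 9 of 18 alternatives; of the fits that each left out 1 library, it was lost without A, C or D of T0 or A or D of T60 (lowest value 0.42). Background subtraction gave -0.06. Gm23751, within the chromatin remodeller gene Chd4, fell from T60 to T120, in a comparison with 60.4% of all genes called. It was at 36.7, 31.6, 32.6 and 30.6 CPM at T60 and at 14.5, 11.6, 21.4 and 18.9 CPM at T120, a log2 fold change of -0.97 (SE 0.40, adjusted p = 0.0398 in edgeR). The groups did not overlap, but the call was lost in 7 of the 8 fits that each left out 1 library, all except that without T120C, with values of -0.84 to -1.02.

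Scarna6, Scarna13 and Scarna3a were not called in the edgeR fit of all 22 libraries, with T120 log2 fold changes of 0.30 (SE 0.34), -0.18 (SE 0.31) and -0.65 (SE 0.58). Scarna6 was at 12.8, 31.6, 21.5 and 25.6 CPM at T0 and at 41.0, 23.9, 28.8 and 20.0 CPM at T120. Scarna13 was at 141, 205, 135 and 143 CPM at T0 and at 132, 102, 150 and 164 CPM at T120. Both overlapped between the groups. Without library T90A, Scarna13 (-0.93) and Scarna3a (-1.57) were called down at T90 (adjusted p = 0.0125 and 0.0408 in edgeR). Scarna13 was also called down at T120 with background subtraction (-0.95), and Scarna6 up at T60 in the fit of only those 2 time points (0.67).

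The Y RNAs overlapped between T0 and T120. Rny3 was at 1189, 1198, 535 and 494 CPM at T0 and at 219, 240, 650 and 875 CPM at T120, a log2 fold change of -0.78 (SE 0.59). Rny1 was at 112, 141, 57.3 and 61.0 CPM at T0 and at 37.1, 28.7, 93.4 and 105 CPM at T120, a log2 fold change of -0.48 (SE 0.52). In both, libraries A and B were the high ones at T0 and the low ones at T120.

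Snord19 was the only snoRNA called against T0 in the edgeR fit of the deposited counts of all 22 libraries with TMM scaling. Other fits called others at T120: Gm24339 and Snora21 with background subtraction, and Snord104 in the fit of only the 2 time points. It lies in Gnl3, which encodes the nucleolar protein nucleostemin, and overlaps an exon of that gene. It was at 10.2, 7.82, 12 and 6.20 CPM at T0 and at 22.3, 10.7 and 28.9 CPM at T90, where library B lay within the T0 range. Relative to T0, the fitted log2 fold change was 1.22 (SE 0.39, adjusted p = 0.00898 in edgeR), kept in 15 of 17 alternatives and lost without T90C (0.87) and with background subtraction (0.47). Gnl3 itself was at 126, 89.5, 98.6 and 84.5 CPM at T0 and at 347, 271 and 331 CPM at T90. At T120 it was at 329, 304, 345 and 441 CPM. Reads of its exon cannot be told apart from those of the snoRNA.

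One library decided the T90 count. Without T90A, 66 of 116 members were down and 1 was up at T90, with 32.9% of all listed genes down and 32.3% up, and the members' median log2 fold change moved from -0.35 to -1.38. It was -0.04 without T90B and -0.06 without T90C. These were 28 of 34 box H/ACA, 20 of 40 box C/D and 7 of 10 scaRNA members, with 2 of 6 rRNA and 4 of 11 snRNA members. The joint test called 32 members without T90A, with 86.3% of all genes called. All members were above their T90 mean in T90A, as given above, and the other T90 libraries stood low together. T90A had 14043660 counts, the smallest total of the T90 libraries, and its background density over long genes was 2.23 CPM per kilobase, against 2.24 in T90B and 2.17 in T90C.

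At T120 the members' estimates lay mostly below 0, although 3 were called. Of 116 members, 98 (84.5%) had a log2 fold change below 0, against 52.4% of all listed genes, and the medians were -0.44 and -0.08. Members that move together between libraries are not independent, so this count rests on few libraries: the median was -0.17 without T0B and -0.70 without T120D. Against T60, 115 of 116 were below 0 at T120, with a median of -0.53, against 52.9% and -0.06 for all genes. At T60 against T0 the members' median was 0.09, with 49 below 0. It was 0.30 with 19 below 0 without T0B, -0.11 with 73 below 0 without T0D, and -0.53 with 103 below 0 with background subtraction.

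By class, the median log2 fold change at T120 was -0.62 for box C/D, -0.29 for box H/ACA, -0.10 for scaRNA, -0.84 for snRNA, -0.75 for rRNA and -0.48 for Y and vault members. It was 0.48 for the 4 RNase P and MRP RNAs. Shorter members had lower values: the median was -0.69 for 36 members of at most 100 bases, -0.37 for 66 of over 100 and up to 200, and 0.14 for 14 longer ones. Within box C/D, 31 members of at most 100 bases had a median of -0.69 and 9 longer ones -0.21. Across 115 members (without the much longer CT010467.1), length and the T120 log2 fold change had r = 0.41 and rho = 0.46, given as a description because members share libraries. At T30 the sign was the opposite, with r = -0.26 and rho = -0.36, and for T120 against T60 the values were 0.51 and 0.49. Libraries of the same time point also differed in the median level of members up to 100 bases minus that of longer ones. On the log2 scale this difference ran from -0.23 to 0.44 at T0 and from -0.54 to 0.13 at T120, so the groups overlapped. At T30 it was 0.65 in T30A, -0.06 in T30B and -0.42 in T30C.

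**Figure D4:**
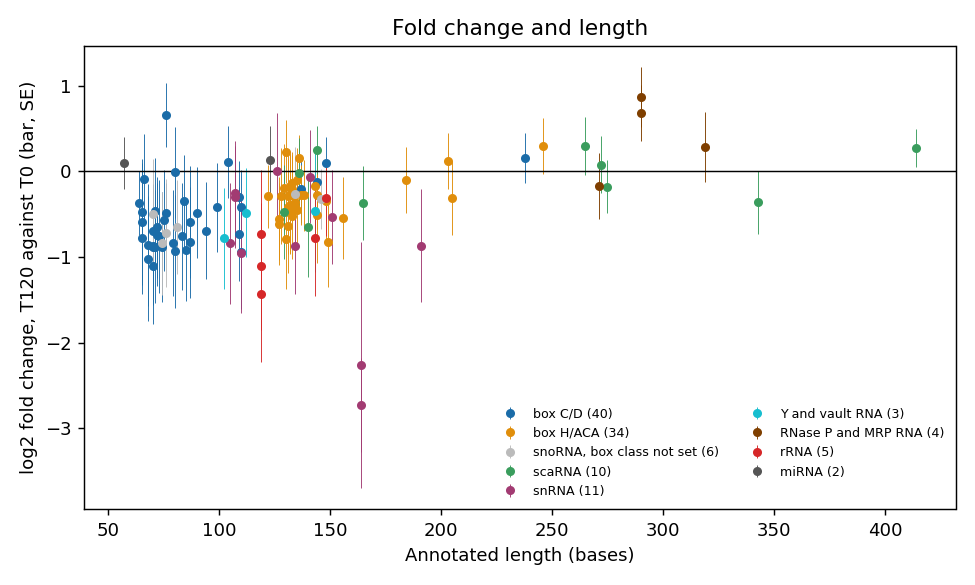
Log2 fold change at T120 against T0 (vertical axis, bars give the SE) by annotated length in bases (horizontal axis) for 115 small noncoding RNA genes, coloured by class. The short box C/D members lie mostly between -1.1 and 0, the Rprl genes near 290 bases lie above 0, and the points near -2.73 and -2.26 are the U1-like pair.

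Measured against the other members instead of all genes, an added scaling that removes the shared deviation, Gm23511 fell at T60, T90 and T120, with log2 fold changes of -2.18, -2.32 and -2.41 (adjusted p = 0.00683, 0.00426 and 0.00072 in edgeR). Gm22513 had -1.56 at T120 (adjusted p = 0.0387 in edgeR), but its T0 and T120 libraries overlapped in this scaling too. Mir6236 (-1.86) fell and Snord19 (1.93) rose at T90, with adjusted p = 0.0377 and 0.0102 in edgeR. Rprl3 had 1.30 at T120 (adjusted p = 0.0946 in edgeR). In this scaling 5.36% of all listed genes were called at T60, 20.7% at T90 and 24.4% at T120.

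Host genes mostly rose at T120, and none of the small RNAs within them was called. Of the 81 such members, 69 overlapped no exon on the same strand. Of the 64 listed hosts, 43 were up and 5 down, against 37.3% and 39.5% of all listed genes, with a median log2 fold change of 0.69. The 81 members inside them had a median of -0.45. Of the 81 pairs, 45 had a host that rose and a member estimate below 0, 8 had a host that rose and a member estimate above 0, 5 had a host that fell and a member estimate below 0, and 23 had a host that was not called. The log2 ratio of member to host CPM changed by a median of -1.09 between T0 and T120. The median ratio had a standard deviation of 0.54 between the T0 libraries and 0.51 between the T120 libraries. At T60, 28 hosts were up and 6 down (27.9% and 28.3% of all genes), with a median of 0.26, and the members' median was 0.13. Across the 81 pairs, host and member fold changes at T120 had r = 0.20 and rho = 0.21, as a description, with several members sharing a host.

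**Figure D5:**
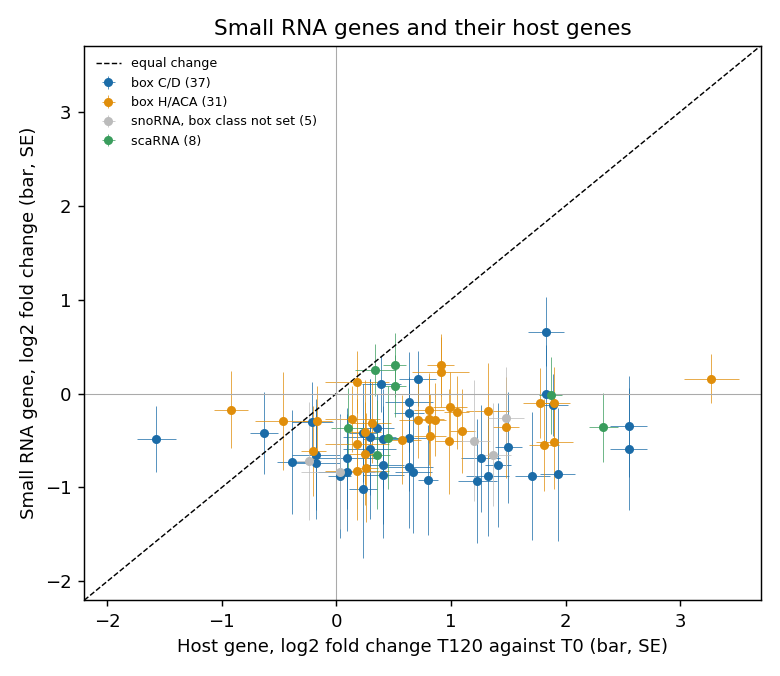
Log2 fold change at T120 against T0 of 81 small RNA genes (vertical axis) and of their host genes (horizontal axis), with SE bars and a dashed line of equal change. Most points lie right of 0 and below the dashed line, with hosts reaching 3.27 and no member above 0.66.

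Nop58, a core protein of box C/D snoRNA complexes, is itself a host. Nop58 was at 151, 119, 181 and 141 CPM at T0 and at 962, 716, 870 and 911 CPM at T120, a log2 fold change of 2.55 (SE 0.16, adjusted p = 1.49e-11 in edgeR). Snord70 in its intron was at 31.6, 31.1, 17.3 and 9.89 CPM at T0 and at 7.80, 6.37, 16.5 and 27.7 CPM at T120 (log2 fold change -0.59, SE 0.65). Host values did not overlap between the times and those of the snoRNA did. The log2 ratio of Snord70 to Nop58 changed by -3.25 and that of Snord11, in another intron, by -2.99. These pairs were singled out after their values were seen and are described without a test.

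The same holds for other hosts singled out after their values were seen. Nop56, the other large core protein, rose by 1.93 (SE 0.15) and its Snord110 had -0.86 (SE 0.71), a change in the ratio of -2.86. Ncl, which encodes nucleolin, rose by 1.71 (SE 0.15) and its Snord82 had -0.88 (SE 0.68), a change in the ratio of -2.74. Odc1, the first enzyme of polyamine synthesis, rose by 3.27 (SE 0.24) and the box H/ACA member Gm22748 within it had 0.16 (SE 0.26), a change in the ratio of -3.08. The ratio changed by -0.34 for Snora21 and Rpl23, by -1.58 for Snord87 and Snhg6 and by -0.16 for Scarna6 and Atg16l1.

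Genes of the proteins that bind the members were read in the same fit. At T120, where 37.3% of all listed genes were up and 39.5% down, all 4 box C/D core proteins were up: Nop58, Nop56, Snu13 (1.72, SE 0.21) and the methyltransferase Fbl (1.24, SE 0.20). Of the 5 listed box H/ACA proteins 4 were up, among them the assembly factor Naf1 (1.87, SE 0.13), Nhp2 (1.30, SE 0.24) and Gar1 (0.73, SE 0.23). Among 9 listed snoRNA complex assembly factors, 4 were up and 3 down, with Nolc1, a nucleolar and Cajal body chaperone, at 2.46 (SE 0.11) and Pih1d1 at -0.98 (SE 0.22). Of 9 Snhg and Gas5 genes (noncoding genes, most of which carry snoRNAs in their introns) 6 were up, with Snhg1 at 1.29 (SE 0.16), Snhg15 at 1.22 (SE 0.18) and Snhg8 at 0.87 (SE 0.16).

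Genes that serve transcription and processing of the members were called in both directions. RNA polymerase III transcribes 5S rRNA, Y RNAs and RNase P RNA. Of 18 listed genes of this polymerase, its factors and its repressor Maf1, 4 were up and 11 down at T120. Gtf3c3 was at -2.35 (SE 0.17) and Bdp1 at 1.51 (SE 0.11), and Maf1 was among those down (-0.53, SE 0.15). Of 17 listed SNAPc and Integrator genes, which serve snRNA transcription and 3' end formation, 3 were up and 10 down, with Ints10 at -1.83 (SE 0.16). Of 7 microRNA processing genes, 1 was up (Ago2, 1.18, SE 0.10) and 5 were down, including the hairpin-cutting enzyme Drosha (-0.96, SE 0.10). Of the 2 listed Y RNA binding proteins, Ssb rose (1.46, SE 0.15) and Trove2, which encodes Ro60, fell (-1.18, SE 0.16). Among 10 Sm and LSm genes 4 were up and 2 down, with Snrpd1 at 1.10 (SE 0.17) and Lsm6 at -1.37 (SE 0.11). Of 9 listed exosome and trimming genes 3 were up and 2 down, with the deadenylase Parn, a trimmer of H/ACA RNA ends, at -1.51 (SE 0.13). Pop1, shared by RNase P and MRP, rose (1.02, SE 0.24) and was 1 of 2 listed proteins of these complexes. Of 7 signal recognition particle genes 3 were up, and of 6 listed 7SK partners 4 were up, with Ccnt1 at 1.46 (SE 0.11).

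Reads over 6 long genes, taken as a measure of background, were fewer at the later times, and 5 of the 6 fell at T120. Whether these cells use any of them was not tested. Over these 6 listed genes the density was 5.61 ± 0.893 CPM per kilobase of exon at T0 and 1.72 ± 0.405 at T120 (SD, n = 4 libraries each). Ryr3 alone held 361 CPM at T0 and 135 CPM at T120, more than the other 5 together at either time, so the density at these times rests mainly on that gene. A density of that size corresponds to a median of 1.41% of a member's level at T0 and 0.575% at T120, and to at most 7.25%, for Rprl2, at T0 among members other than CT010467.1. Subtracting it left 7774 of the 8059 genes in the fit. The subtraction moved the members' median log2 fold change at T120 from -0.44 to -1.24 and that of all genes from -0.08 to 0.38. It also moved Snora21 and Rprl3, whose expected background at T0 was 0.106% and 0.567% of their levels. How much of these moves came from the members' own counts, and how much from the changed scaling of all genes, was not tested.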

How the data were processed

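Bulk RNA-seq of mouse muscle stem cells was analysed from 1 table of the whole series. Per the file headers, it holds raw read counts per Ensembl gene for 22 libraries and the authors' own log2 fold changes and adjusted p-values, and the deposited p-values were used only to list the authors' calls. Per the submitters' processing notes, DESeq2 1.18.1, featureCounts 1.4.5-p3 and cutadapt 1.11 were among the tools and mm10 was the build. The sources used here do not give the aligner, annotation or strand setting. Per the labels' protocols, RNA came from a kit for formalin-fixed material and the libraries were stranded total RNA, single-end. Of 15 samples in the series, 9 have no file and were not analysed here.

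Counts were fitted across all 8059 genes and 22 libraries with edgeR 4.0.16 (R 4.3.3; TMM scaling, quasi-likelihood F test, Benjamini-Hochberg adjustment, threshold 0.05). Its filter on low counts kept all 8059 genes, and the common coefficient of variation was 0.192. The fit was tested on simulated data. SE is the log2 fold change divided by the square root of F. CPM use TMM library sizes, log2 CPM a prior count of 2 and host ratios a pseudocount of 0.5 CPM. Alternatives were DESeq2 1.42.0, limma-voom (limma 3.58.1), other scalings, a replicate block, background subtraction, fits of only 2 time points, and leaving out each library, and, added after seeing the data, scaling to the members alone and leaving out the 5 libraries of highest background. Nothing in the labels ties a letter to an animal, so pairing was checked by the correlation of deviations from the time means over all genes. Every same-letter correlation was over 0.1 between T30 and T60 (0.12 to 0.30) and between T60 and T120 (0.19 to 0.47), which was taken as pairing. The same held between T90 and each of T30, T60 and T120 (0.16 to 0.39). Between T0 and later times, same-letter correlations ran from -0.57 to 0.31. Correlations between different letters are not given here, so these values cannot show that a letter links libraries. The main fit uses no pairing. Classes came from names and sequence letters, and hosts, lengths and sequences from GENCODE vM21. The members and gene lists were chosen with earlier results of these data known. Named were all members called at T60, T90 or T120, all Rmrp, Rpph1, Rny1, Rny3, Rnu, Scarna and Mir genes, hosts of named members, and up to 3 called genes of each partner list by size at T120. Snord19, Gm22513, Gm23751, Rprl2, Snord104, Snord87, Snora21, the members in Nop58, Nop56, Ncl and Odc1 and a few partner genes were named after their values were seen.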

Additional observations from a re-analysis of the deposited data

Results flagged for a closer look

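In groups of 4 libraries, 84 sets of values of 21 named members were checked for a library far from the other 3, and 4 stood out. Chance flags about 1 in 20 such groups. Gm23511 was at 13.1 CPM in T15A, below the other T15 libraries. Scarna13 was at 205 CPM in T0B, above the other T0 libraries, and at 76.0 CPM in T15A, below the other T15 libraries. Gm22513 was at 11.6 CPM in T120C, below the other T120 libraries.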

How the results depend on the processing

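The member to host ratio at T120 kept its direction under every alternative run (-0.86 to -1.31 without 1 library, -1.05 with a pseudocount of 2 CPM, -1.04 for the members that overlap no other exon). Leaving out each library in turn gave these ranges of called members: 0 to 5 up and 1 to 2 down at T60, 0 to 2 up and 2 to 66 down at T90, 0 to 2 up and 2 to 3 down at T120, 0 to 1 down at T30, 1 to 3 up and 1 to 2 down from T30 to T60, 0 to 1 down from T60 to T120, and 3 to 32 in the joint test. DESeq2 called 5 members up at T60 and 2 at T120, with 2267 and 3107 of all genes up. Limma-voom called 2 up from T30 to T60 and 0 down from T60 to T120. Fits of only the 2 time points compared called 15 up at T60, with 2451 of all 8059 genes up. At T120 they called 2 up and 6 down, with 3070 of all genes up and 3081 down. They called 7 up from T30 to T60 and 15 down from T60 to T120. For these 2 steps, the fit of all libraries called 51% and 60.4% of all genes in either direction. Background subtraction called 0 up at T60, T90, T120 and from T30 to T60, 7 down at T120 and 13 in the joint test. It moved the T120 median of all genes from -0.08 to 0.38 and of members from -0.44 to -1.24, so members are read relative to that shift. Its fit held 7774 genes against 8059 in the main fit. Genes up and down at T120 were 2501 and 1648 in it, against 3003 and 3184. Background subtraction also gave Scarna2 -0.06 at T60, a reversed sign. Scaling to the members called 0 up and 1 down at T60, 0 up at T120, 0 up and 0 down from T30 to T60 and 0 down from T60 to T120. With it CT010467.1 had 0.12 at T90, a reversed sign, and all genes had 1634 up and 331 down at T120. Leaving out the 5 libraries of highest background (T30A, T15D, T30B, T0C and T0A) left T30C as the only T30 library. Calls that use T30 in that fit are therefore not given. The causes of these differences were not tested, other than the fewer libraries in some fits. With a replicate block by letter, the later comparisons in which letters were taken to pair the libraries kept their calls. Gm23751 had -0.96 from T60 to T120 (adjusted p = 0.0457 in edgeR). From T30 to T60, Mir6236 had 1.68 and CT010467.1 -1.11 (adjusted p = 0.00524 and 0.000427 in edgeR). Against T0, letters were not taken to pair the libraries. There the block gave 2 members up and 2 down at T60, 1 up and 2 down at T90, and 1 up and 2 down at T120. With the block, 3 passed the joint test. Among members, 21 of 116 had a 95% interval at T120 within 2-fold.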
